A study of Mus musculus with 10 samples.

Results

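The proteasome genes described here were the 45 of 22373 genes in the footprint table whose mouse symbol starts with Psma, Psmb, Psmc, Psmd or Psme followed by a digit. Of these, 19 encode core subunits, 20 encode regulatory subunits or their assembly chaperones, 5 encode activators, and 1, Psmc3ip, is no subunit but a meiotic recombination factor whose symbol fits the rule. Ribosome profiling measured the mRNA fragments protected by translating ribosomes in neocortex of wild-type mice at 5 stages, embryonic days E12.5, E14, E15.5 and E17 and the day of birth (P0), with 2 libraries per stage. Each library came from tissue pooled over many brains of timed pregnancies, digested with RNase T1 and RNase A without cycloheximide, and no stage carried an allele or treatment that the others lacked. Total counts were 7544404 in replicate 1 of P0 and between 21378041 and 36129988 in the other 9 libraries, and the 45 genes together took between 0.444% and 0.604% of them. A footprint count reflects both the amount of an mRNA and how densely ribosomes sit on it, and in whole tissue it also reflects how many cells of each type are present. These cannot be told apart here.

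The proteasome is the main protease for ubiquitin-tagged proteins in the cytosol and nucleus. Its barrel-shaped core is built of alpha rings, which gate the entry, and beta rings, which hold the catalytic sites. A regulatory particle caps the core: its base carries a ring of ATPases that unfold the substrate, and its lid removes the ubiquitin chain. Activators of the Psme family open the core without ATP, and in cells exposed to interferon the catalytic beta subunits can be exchanged for immune forms. In neurons, proteasomal degradation takes part in axon growth and in remodelling of synapses.

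Levels are given as CPM, counts divided by library size, with library sizes scaled by the trimmed mean of M-values (TMM), and a fold change is a fitted log2 difference between stages. A gene was called changed when the Benjamini-Hochberg adjusted p over all 13484 genes tested was under 0.05 and the log2 change was at least 0.32 in either direction. Genes needed at least 32 footprints summed over the libraries of 1 stage to be tested, which 42 of the 45 reached. Psma8, the testis form of a core alpha subunit, had between 0 and 11 counts per library. Psmb9, an immune catalytic subunit, had between 1 and 9. Psmb11, the thymus-specific catalytic subunit, had 0 counts in all 10 libraries, which allows a level of up to 0.326 CPM in the shallowest library and between 0.0715 and 0.165 CPM in the others, counting error only. None of these was tested.

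As a family, the proteasome genes had a smaller share of calls than all translated genes tested, given here as counts with no test of the difference. Summed over all 45, the level stayed between 4894.2 and 5495.6 CPM in the 10 libraries. In the test for any change over the 5 stages, 16 of the 42 tested genes had an adjusted p under 0.05, against 63.8% of all genes and 65.3% of the 4559 genes that averaged 500 counts or more. The 16 were spread unevenly over the roles. None of 7 constitutive beta subunits passed, with 2 of 7 alpha subunits, 2 of 11 non-ATPase subunits, 4 of 6 ATPases and 5 of 5 activators. The fitted changes of the 42 genes were also measured more tightly than most, with a median standard error of 0.11 on the log2 scale from E12.5 to P0 against 0.2 over all genes. The 16 depended on the fit: more genes passed without replicate 2 of P0, and 26 did when scaled to total counts instead of by TMM. The shares of all genes in those 2 fits are not given here. The comparison of shares in this test therefore holds for the main fit only.

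**Figure D1:**
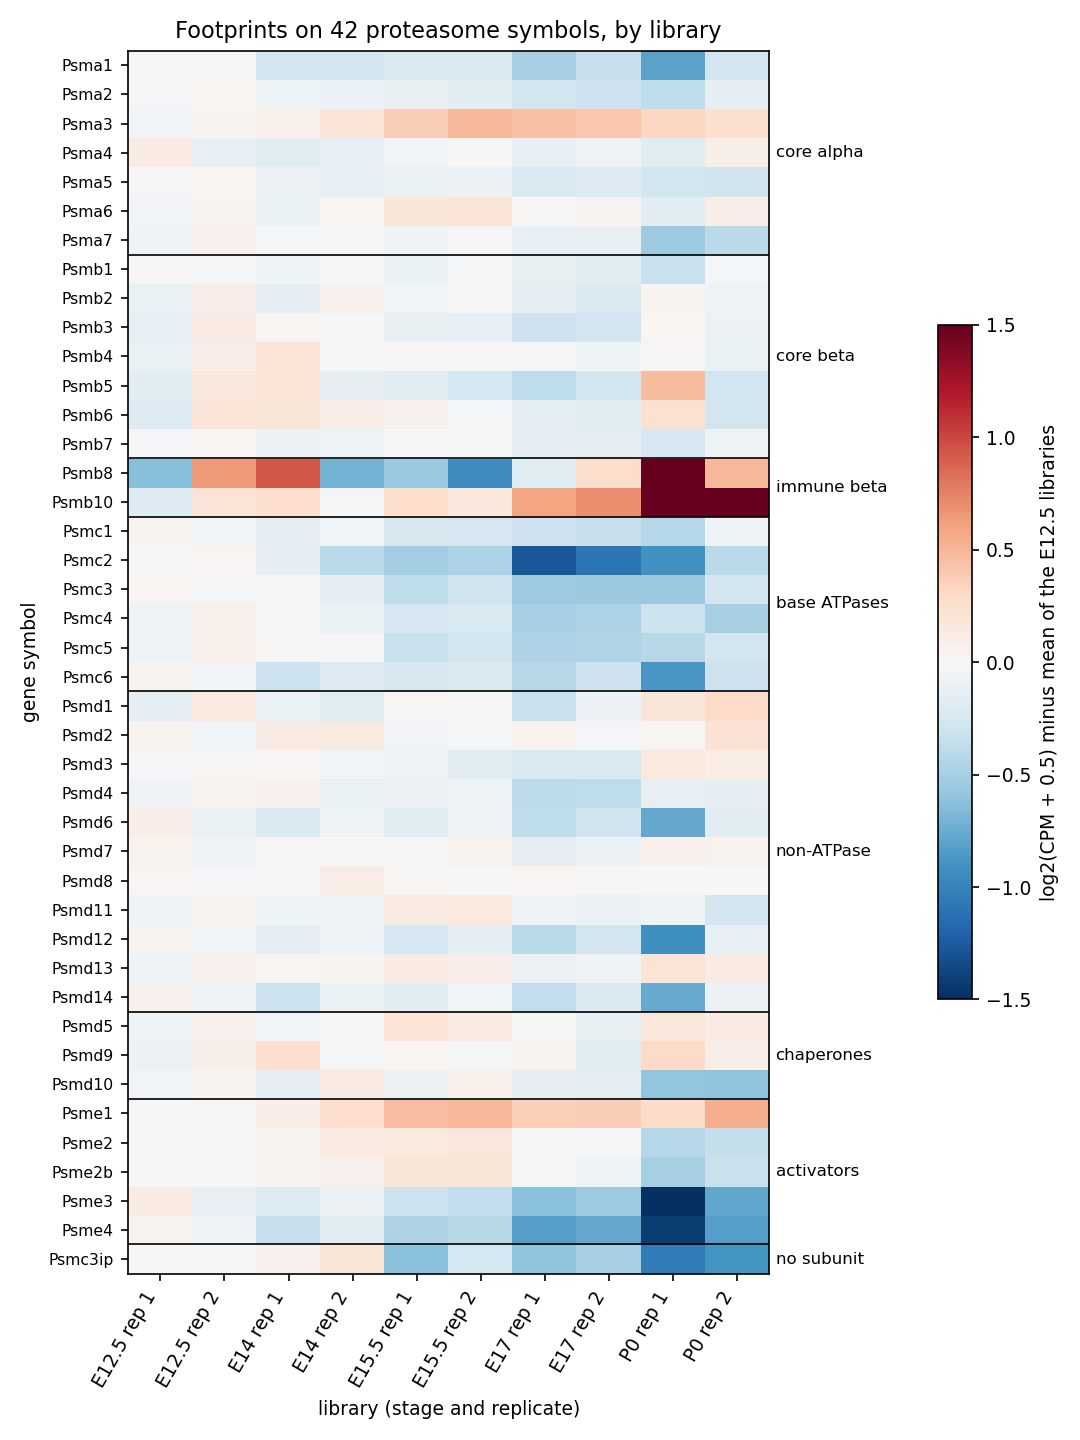
Heat map of the 42 tested genes (rows, grouped by role) in the 10 libraries (columns). Colour is log2(CPM + 0.5) minus the mean of the E12.5 libraries, and values beyond 1.5 in either direction have the end colours. Most core beta and non-ATPase rows stay pale, the ATPase rows and Psme3, Psme4 and Psmc3ip turn blue towards P0, and Psmb10 turns red.

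Between consecutive stages, the contrast with the rest of the table was largest at the E14 to E15.5 step. From E12.5 to E14, 0 of 42 were called, by limma-voom, edgeR and DESeq2 alike, with 0 at an unadjusted p under 0.05 in limma-voom, where 0.638% of all genes were called (0.497% higher and 0.141% lower) and 1.36% of those averaging 500 counts or more. From E14 to E15.5, 36.1% of all genes were called, 16.5% higher and 19.6% lower, and 36.1% of those averaging 500 counts or more. Of the 42, 1 was called, and it was Psmc3ip. Of the 41 subunits and chaperones 0 were called by limma-voom, edgeR or DESeq2, with 4 at an unadjusted p under 0.05. Scaled to total counts instead of by TMM, 12 were called higher and 0 lower, with 4406 of all 13484 genes called higher. The median of all genes moved from -0.01 to 0.29.

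From E15.5 to E17, most fitted values leaned downwards by a small amount. The fitted value was below 0 for 38 of 42, and both E17 libraries lay below both E15.5 libraries for 35 of them, an order that 33.8% of all genes had. The median change was -0.15 on the log2 scale, against -0.0001 over all genes. Only Psmc2, an ATPase of the base, passed the test, where 9.04% of all genes did (5.61% higher, 3.43% lower, and 9.39% in all of those averaging 500 counts or more). Its call was lost when any 1 library of E12.5, E14, E15.5 or E17 was left out (fitted values between -0.79 and -0.61). Fewer of all genes were called in these fits too. From E17 to P0, 4 were called higher (Psmb10, Psmc2, Psmd1 and Psmd3) and 4 lower (Psma7, Psmd10, Psme2 and Psme2b), where 20.5% of all genes were called, 9.46% higher and 11.1% lower, and 23.0% of those averaging 500 counts or more. Leaving out 1 library of E15.5 or E17 left fewer calls over all genes, and among the proteasome genes as well. None of these calls remained without replicate 1 of E17. Only Psmb10 remained without replicate 2 of E17 or replicate 1 of E15.5, 2 remained without replicate 2 of E15.5, and scaled to total counts 7 genes were called higher and 0 lower.

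**Figure D2:**
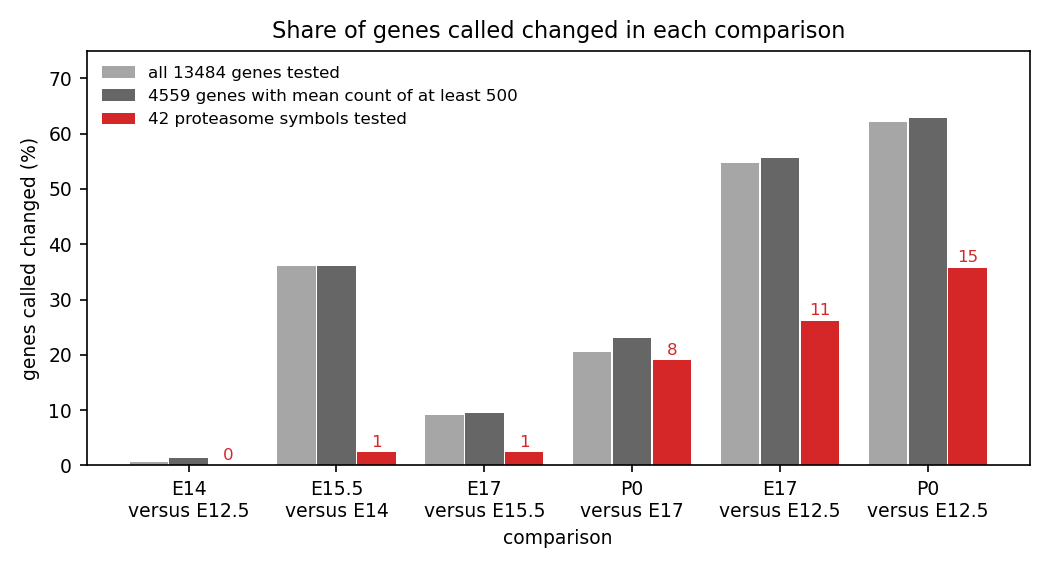
Percentage of genes called changed in each of 6 comparisons, for all 13484 genes tested (light grey), the 4559 averaging 500 counts or more (dark grey) and the 42 proteasome symbols (red, with the number called above the bar). The red bar is below both grey bars in each comparison, with 0 called in the first step and 8 in the last.

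Over the longer intervals, which share the E12.5 libraries, more genes passed. From E12.5 to E17, 3 were called higher and 8 lower, with 54.7% of all genes called, 26.9% higher and 27.8% lower, and 55.6% of those averaging 500 counts or more. From E12.5 to P0, 2 were called higher and 13 lower, with 62.1% of all genes called, 30.1% higher and 32.0% lower, and 62.8% of those averaging 500 counts or more. The median change to P0 was -0.17 for the 42 genes and -0.01 for all genes. Scaled to total counts, the median of all genes was 0.51, and 21 proteasome genes were called higher and 3 lower. On that scale 6443 of all 13484 genes were called higher. Directions below are therefore relative to the TMM scale, on which the median gene hardly moved. The gap between the medians was -0.15 on either scale. The replicates of P0 disagreed most: the SD of the log2 ratio between replicates over the 37 proteasome genes averaging 500 counts or more was 0.35 at P0 and between 0.061 and 0.15 at the other stages. Without replicate 1 of P0, 9 genes were called lower, and without replicate 2, 19 were.

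**Figure D3:**
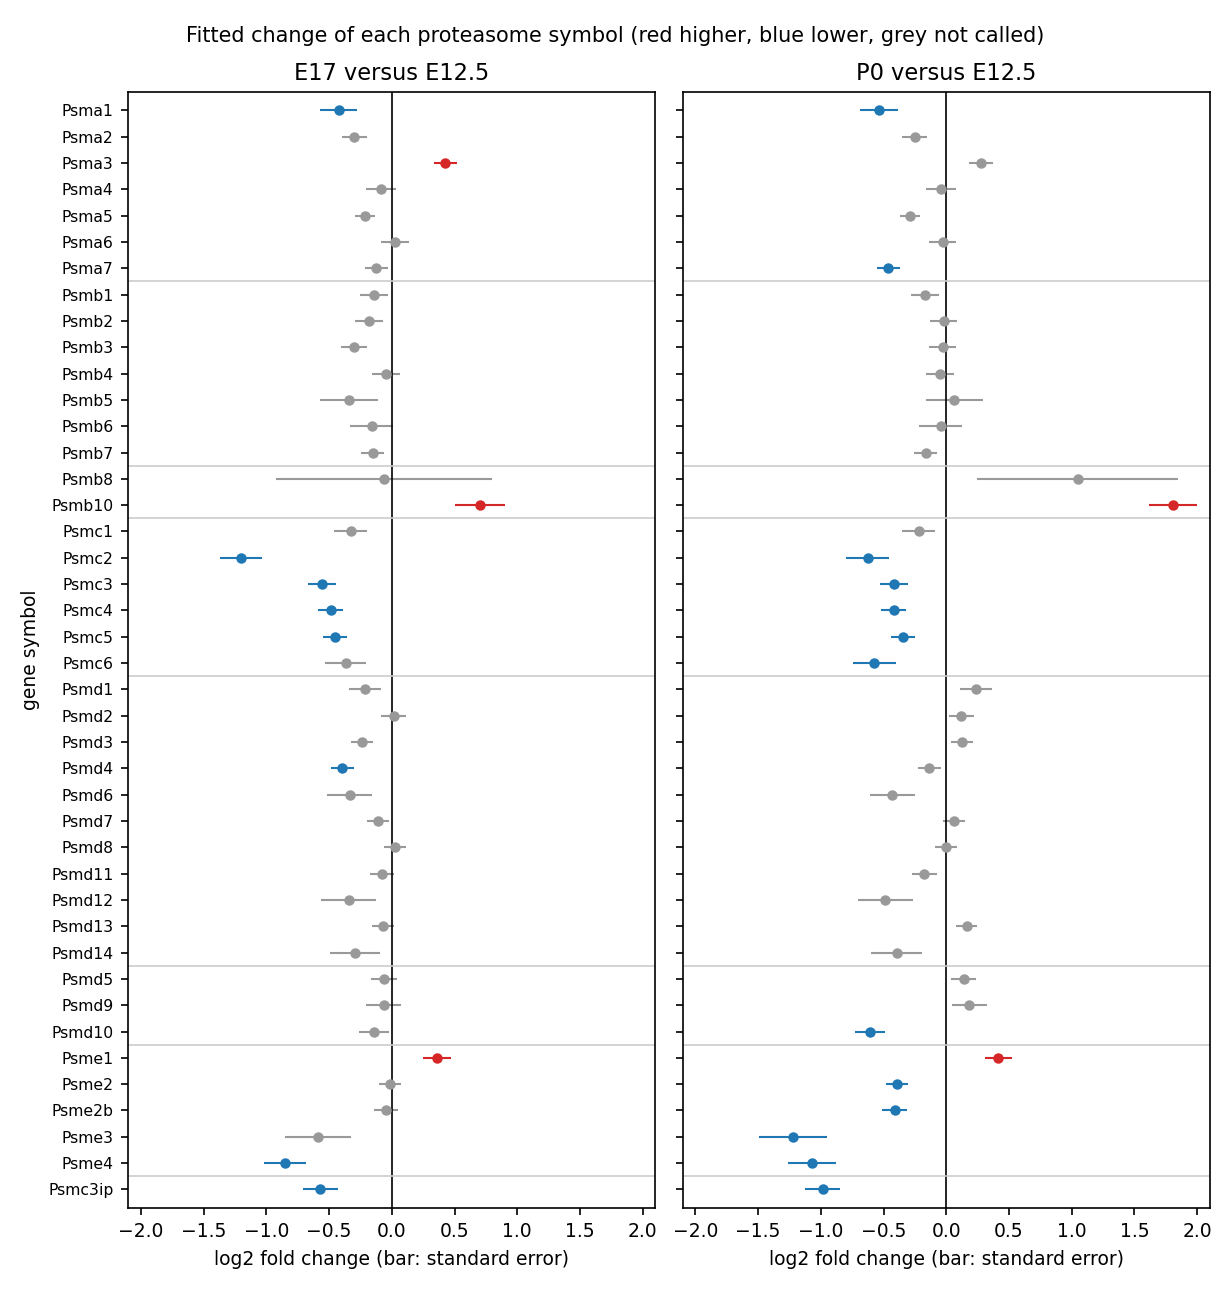
Fitted log2 fold change of each tested gene from E12.5 to E17 (left) and to P0 (right), with its standard error as a bar, in the order of the heat map. Red marks genes called higher, blue those called lower and grey those not called. The 6 Psmc ATPases lie below 0 in both panels and the constitutive Psmb subunits lie near 0 at P0.

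Among the alpha subunits, which form the outer rings of the core, most changed little and 3 stood out. Psma3 was at 539 and 572 CPM at E12.5, then 587 and 637 (E14), 716 and 782 (E15.5), 756 and 736 at E17, and 688 and 656 at P0. All libraries from E14 on were above both of E12.5, and the change to E17 was called (log2 0.43, SE 0.093, adjusted p = 0.00502), while that to P0 fell short of the fold required (0.28, adjusted p = 0.0301). Psma1 went from 280 and 273 CPM at E12.5 to 158 and 227 at P0. Its call (-0.54, SE 0.15, adjusted p = 0.0145) was lost without either E12.5 library (-0.52 and -0.56) and without replicate 1 of P0 (-0.29). Psma7 was between 132 and 151 CPM in the 8 embryonic libraries and at 99.8 and 109 CPM at P0, so that the groups did not overlap (-0.46, SE 0.092, adjusted p = 0.00241). The call of Psma7 was lost with only the libraries of E12.5 and P0 fitted (-0.45), and the value was 0.06 on total counts. Psma2, Psma4, Psma5 and Psma6 were not called in any comparison, with fitted changes to P0 between -0.29 and -0.03.

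The constitutive beta subunits showed the smallest range of the core. In limma-voom 0 of the 7 were called in any of the 6 comparisons, as in edgeR and DESeq2, where from E12.5 to P0 62.1% of all genes were in limma-voom. At most 1 had an unadjusted p under 0.05 in a comparison (at most 2 in DESeq2). Their changes from E12.5 to P0 lay between -0.17 and 0.06. Scaled to total counts, 6 of the 7 were called higher from E12.5 to P0, where 6443 of all 13484 genes were. Calls among the 7 also appeared without replicate 2 of P0. They include the catalytic subunits Psmb5 (chymotrypsin-like), Psmb6 (caspase-like) and Psmb7 (trypsin-like). Psmb7 was at 153 and 160 CPM at E12.5 and at 131 and 148 CPM at P0 (-0.16, SE 0.092, adjusted p = 0.154). Psmb6 was at 126 and 164 CPM at E12.5 and at 168 and 119 at P0 (-0.05, SE 0.17, adjusted p = 0.836). Psmb5 was at 130 and 161 CPM at E12.5 and at 201 and 118 at P0 (0.06, SE 0.23, adjusted p = 0.825). For the latter pair of genes the replicates of P0 differed by more than the stages did, and leaving out 1 library turned the sign of the change: Psmb5 was at -0.30 without replicate 1 of P0 and at 0.47 without replicate 2, where it was called higher, and Psmb6 reached 0.21 without replicate 2.

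In place of these, cells exposed to interferon can build in Psmb8, Psmb9 and Psmb10, which take the sites of Psmb5, Psmb6 and Psmb7. Psmb10 had the largest rise of all tested members. Its level was 2.2 and 3.03 CPM at E12.5, then 3.18 and 2.53 (E14), 3.22 and 2.95 (E15.5), 4.16 and 4.5 at E17, and 10.3 and 8.75 at P0. The P0 libraries were above all others and the E17 libraries above all earlier ones, and the change from E12.5 to P0 was 1.81 (SE 0.19, adjusted p = 7.28e-05). It was called under each of the 21 alternatives run, with values from 1.61 to 2.07 when 1 library was left out. Against its constitutive counterpart, 1.44 and 1.9 counts of Psmb10 were found per 100 of Psmb7 at E12.5, 2.96 and 3.2 at E17, and 7.91 and 5.91 at P0. These ratios do not depend on library scaling and compare stages, not amounts of the proteins.

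Psmb8 was low and uneven between replicates. It was at 0.99 and 3.14 CPM at E12.5, then 3.93 and 0.919 (E14), 1.08 and 0.718 (E15.5), 1.56 and 2.29 at E17, and 9.35 and 2.79 at P0. The libraries of E12.5 and P0 overlapped, while both of E17 were above both of E15.5 and both of P0 above both of E17. No step was called, nor was the change from E12.5 to P0 (1.05, SE 0.80, adjusted p = 0.278), although it was without replicate 2 of P0 (2.24). Psmb9, with at most 9 counts, gave no usable comparison.

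The other genes of antigen presentation and the interferon response on the list used first fell and then rose. The median of the 7 tested was -0.28 from E12.5 to E14, -0.82 to E15.5, 0.50 to E17 and 0.70 to P0. Over all genes these medians lay between -0.02 and -0.0001. From E12.5 to P0, 1 of the 7 was called higher and 1 lower, where 30.1% and 32.0% of all genes were. The higher was Irf9, an interferon signalling factor (0.57, adjusted p = 0.0228). Irf9 was not called without replicate 1 (0.54) or 2 (0.60) of E12.5 or replicate 2 of P0 (0.37). H2-K1 and H2-D1, class I antigen-presenting molecules, were at -0.01 and -0.09 (adjusted p = 0.981 and 0.739), and B2m, their light chain, at -1.21 (SE 0.64, adjusted p = 0.132). Markers of microglia, a brain cell type in which immune subunits are known to be made, summed to between 27.3 and 47 CPM in all libraries. From E12.5 to P0, 0 of the 12 markers were called higher and 2 lower, beside the same shares of all genes. None of the 12 microglia markers was at 0 throughout. Their part in the rise of Psmb10 was not tested.

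The 6 ATPases of the base, Psmc1 to Psmc6, declined as a group. Some other regulatory genes had falls of like size from E12.5 to P0. These were Psmd10 (-0.61, called) and, not called, Psmd12 (-0.49), Psmd6 (-0.43) and Psmd14 (-0.40), while 5 of the 11 non-ATPase subunits were above 0. From E12.5 to P0, all 6 fitted values were below 0, with both P0 libraries below both E12.5 libraries for each, an order that 38.8% of all genes had. On the TMM scale, 5 of the 6 were called lower, where 32.0% of all genes were, and 0 when only the libraries of these 2 stages were fitted. The median was -0.42, against -0.20 for all regulatory genes and -0.01 for all genes. Leaving out 1 library gave between 2 calls (without replicate 1 of P0 or replicate 2 of E12.5) and 6 (without replicate 2 of P0), with 3 without replicate 1 of E12.5. All 6 values stayed below 0 in each of these fits. Scaled to total counts, 0 were called lower and the median was 0.11.

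By E17, 4 of the 6 were already lower than at E12.5 (median -0.47), which was so in each fit that left out 1 library, except that leaving out either P0 library gave 6. On total counts 1 of them, Psmc2, was. The calls at E17 were those of Psmc2, Psmc3, Psmc4 and Psmc5, with changes between -1.20 and -0.46. Psmc1 was not called at either stage (-0.33 and -0.22). Psmc6 was at 108 and 102 CPM at E12.5 and at 57 and 84.5 at P0 (-0.57, SE 0.17, adjusted p = 0.0158), a call lost without replicate 1 of E12.5 (-0.53) or of P0 (-0.31).

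Psmc2 had the deepest dip of the ATPases. Its level was 43.3 and 44.9 CPM at E12.5, then 40 and 33.1 (E14), 30.5 and 31.8 (E15.5), 18 and 20.4 at E17, and 23.3 and 33.2 at P0. The E17 libraries were the lowest of all, and the change from E12.5 to E17 was -1.20 (SE 0.17, adjusted p = 0.000477), called in each alternative run. From E17 to P0 it rose (0.58, SE 0.17, adjusted p = 0.0491), a call lost when any 1 library other than replicate 1 of P0 was left out (without replicate 2 of P0 the value was 0.28, and the others lay between 0.48 and 0.66). Its change from E12.5 to P0 (-0.63, adjusted p = 0.0116) was lost without replicate 2 of E12.5 (-0.60). Per 100 counts of the other 5 ATPases, 6.63 and 6.72 counts fell on Psmc2 at E12.5, 3.79 and 4.22 at E17, and 5 and 6.23 at P0.

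The decline of the ATPases was relative to the other parts of the particle and not only to the median gene. For each count on the 11 non-ATPase subunits there were 0.485 and 0.486 counts on the ATPases at E12.5, then 0.478 and 0.451 (E14), 0.391 and 0.398 (E15.5), 0.382 and 0.381 at E17, and 0.361 and 0.395 at P0. The E12.5 and E14 libraries did not overlap with the 6 later ones. Against the core, the ratio was 0.254 and 0.242 at E12.5 and 0.179 and 0.204 at P0, and without Psma3 in the core 0.317 and 0.301, and 0.239 and 0.268. No test was made on these sums.

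The promoters of 4 genes called lower from E12.5 to P0 are shown, with letters found by search in capitals. RefSeq start sites (build GRCm38.p6) were available for 38 of the 45 symbols, and the 250 bases before the start were searched on both strands, with 1 window per gene. The letters CCGGAAG, the kind of element bound by ETS-family factors, were in 11 of the 38 windows (28.9%), in 13.6% of 10376 windows of tested genes and in 7.05% of all 27025 windows. The 11 were those of Psmc1, Psmc2, Psmc6, Psmc3ip, Psmd2, Psmd4, Psmd6, Psmd11, Psmd12, Psme3 and Psme4, all regulatory or activator genes or Psmc3ip, and none was a core gene. Of the 13 symbols called lower from E12.5 to P0, 5 were among the 11, 7 had a window without these letters, and Psmc3 was not searched. The letters TGACNNNGC, part of the element bound by Nfe2l1 and Nfe2l2, were in 5 windows (Psmb5, Psmb6, Psmc6, Psmd9 and Psmd12), or 13.2%, against 11.6% of tested genes, and CCAAT was in 39.5% against 36.9%. The letters GAAA repeated after a gap of 2 bases, as in interferon response elements, were in 3 windows (Psmb3, Psmd4 and Psmd9) and not in that of Psmb10. In the 4 windows below, written 5′ to 3′ on the gene's strand, capitals mark CCGGAAG, TGACNNNGC and CCAAT or their reverse complements. A match is a match of letters only.
Psmc6, chr14:45329574-45329823, + strand: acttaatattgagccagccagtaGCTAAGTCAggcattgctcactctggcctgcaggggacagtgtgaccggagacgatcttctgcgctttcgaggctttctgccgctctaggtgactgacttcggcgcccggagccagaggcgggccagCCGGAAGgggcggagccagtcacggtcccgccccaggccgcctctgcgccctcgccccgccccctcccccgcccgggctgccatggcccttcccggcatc
Psmc2, chr5:21785025-21785274, + strand: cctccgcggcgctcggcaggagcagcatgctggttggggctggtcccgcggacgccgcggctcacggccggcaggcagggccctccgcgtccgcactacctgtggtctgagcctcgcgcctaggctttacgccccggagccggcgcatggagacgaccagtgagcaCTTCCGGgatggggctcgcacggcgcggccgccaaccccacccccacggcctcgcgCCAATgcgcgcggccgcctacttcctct
Psme3, chr11:101315963-101316212, + strand: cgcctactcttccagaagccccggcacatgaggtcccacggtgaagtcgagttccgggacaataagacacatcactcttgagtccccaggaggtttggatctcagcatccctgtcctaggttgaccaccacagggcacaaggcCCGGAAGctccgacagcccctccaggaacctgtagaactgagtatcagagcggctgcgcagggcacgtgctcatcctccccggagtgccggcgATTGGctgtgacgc
Psme4, chr11:30771525-30771774, + strand: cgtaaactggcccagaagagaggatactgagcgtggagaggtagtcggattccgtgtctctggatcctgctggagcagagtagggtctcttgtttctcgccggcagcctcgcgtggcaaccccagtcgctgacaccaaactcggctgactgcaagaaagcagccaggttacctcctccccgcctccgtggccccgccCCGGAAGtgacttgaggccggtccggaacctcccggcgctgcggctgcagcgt
CCGGAAG began 100 bases before the start in Psmc6, 84 in Psmc2 (as CTTCCGG), 107 in Psme3 and 53 in Psme4. Psmc6 was shown as the gene called from E12.5 to P0 that held TGACNNNGC in this window, and the other 3 were chosen after their values and matches were seen.

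The 11 non-ATPase subunits of the base and lid, Psmd1 to Psmd4, Psmd6 to Psmd8 and Psmd11 to Psmd14, were mostly below their E12.5 values at E17 and split at P0. From E12.5 to E17, 9 of the 11 fitted values were below 0, with 1 called, where 54.7% of all genes were. From E12.5 to P0, 5 fitted values were above 0 and 6 were at or below it, and the median was 0.00. By limma-voom, edgeR or DESeq2 0 were called, with 1, 0 and 1 at an unadjusted p under 0.05. In limma-voom 62.1% of all genes were called. Scaled to total counts, 8 were called higher, where 6443 of all 13484 genes were. Without replicate 2 of P0, some were called lower. The flattest was Psmd8, a lid subunit, which lay between 236 and 261 CPM in all 10 libraries.

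The subunits that receive or remove ubiquitin are in this group. Psmd4, a ubiquitin receptor, was at 192 and 206 CPM at E12.5, then 208 and 185 (E14), 187 and 189 (E15.5), 151 and 152 at E17, and 182 and 180 at P0. Only the E17 libraries stood apart, and the change from E12.5 to E17 was called (-0.39, SE 0.092, adjusted p = 0.00689). That call was lost without replicate 2 of E12.5 (-0.34), and the value was 0.02 when scaled to total counts. Psmd1, a scaffold of the base, was between 64.3 and 89.7 CPM in the embryonic libraries and at 91.9 and 98.9 CPM at P0, above all of them. Its rise from E17 to P0 was 0.45 (SE 0.13, adjusted p = 0.0413) and was lost without either E17 library (0.32 and 0.57), either E14 or E15.5 library (0.45 or 0.46) or replicate 2 of P0 (0.39). Psmd2, the other large scaffold, ranged from 83.2 to 98.9 CPM and was not called in any comparison. Psmd14, the deubiquitinase of the lid, was at 107 and 97.7 CPM at E12.5 and at 60.1 and 95.9 at P0. The P0 libraries lay below those of E12.5 but far apart (-0.40, SE 0.20, adjusted p = 0.114), and without replicate 2 of P0 it was called lower (-0.76). The lid subunits Psmd6 and Psmd12 had the same split at P0, with 41.1 and 63.2 CPM and with 62.7 and 110 CPM, and were not called.

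The 3 chaperones that assemble the base did not move as a group. Psmd10 (gankyrin) was between 29.1 and 35.5 CPM in the embryonic libraries and at 21.2 and 21 CPM at P0, with no overlap. Its change from E12.5 to P0 was called (-0.61, SE 0.12, adjusted p = 0.00282) in each fit that left out 1 library, but not on total counts (-0.09). Psmd5 was at 15.6 and 17 CPM at E12.5 and 18.4 and 17.8 at P0 (0.14, SE 0.10, adjusted p = 0.264). Psmd9 was at 28.7 and 32.4 CPM at E12.5 and 37.4 and 32.8 at P0 (0.18, SE 0.14, adjusted p = 0.271). Both P0 libraries of either gene were above both of E12.5, and neither was called in any comparison.

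All 5 activator rows passed the test for any change over the stages, where 63.8% of all genes did. From E12.5 to P0, 1 was called higher and 4 lower, where 30.1% and 32.0% of all genes were. The 4 include Psme2 and Psme2b, which may share reads. From E12.5 to E17, 1 was called higher and 1 lower, with a median of -0.04. Psme3 and Psme4 encode activators of nuclear proteasomes. Psme3 was at 67.4 and 56.8 CPM at E12.5, then 53.4 and 58.2 (E14), 49.4 and 47.8 (E15.5), 39.9 and 42.4 at E17, and 17.3 and 35.9 at P0. Both E17 libraries were below all earlier ones and both P0 libraries below those. The change from E12.5 to P0 was -1.22 (SE 0.27, adjusted p = 0.00425), the deepest fall of the 42, but its size rested on the P0 replicates, being -0.78 without replicate 1 and -1.83 without replicate 2. Psme4 went from 9.07 and 8.45 CPM at E12.5 over 6.76 and 7.79, 6.23 and 6.42, and 4.73 and 4.95 to 2.94 and 4.72 at P0. No later library reached the level of E12.5 (-0.85 at E17, SE 0.17, adjusted p = 0.0032, and -1.07 at P0, SE 0.19, adjusted p = 0.00123), and without replicate 2 of P0 the latter was -1.55. From E12.5 to P0 both genes were called lower in all 21 alternatives run, total counts included (-0.69 and -0.55). At E17, Psme4 was not called on total counts (-0.43).

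Psme1 and Psme2 encode the alpha and beta chains of a single ring-shaped activator, known for its part in antigen processing, and they moved apart. Psme1 was at 117 and 120 CPM at E12.5, then 127 and 141 (E14), 164 and 167 (E15.5), 152 and 153 at E17, and 143 and 173 at P0. All later libraries were above both of E12.5, and the rise was called at E17 (0.36, SE 0.11, adjusted p = 0.0218) and at P0 (0.42, SE 0.11, adjusted p = 0.0106). The call at P0 was lost without replicate 1 of E12.5 (0.40) or replicate 2 of P0 (0.27) and with sample weights (0.37) or only the 2 stages fitted (0.43), and that at E17 without any 1 library of E12.5 or E17 (0.35 to 0.38). Psme2 was between 61.7 and 71 CPM in the embryonic libraries and at 46.5 and 49.1 CPM at P0, with no overlap. Its fall from E12.5 to P0 was called (-0.39, SE 0.089, adjusted p = 0.00491). It lay between -0.43 and -0.36 when 1 library was left out, but turned to 0.14 on total counts. With only the 2 stages fitted it was not called (-0.38).

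The ratio of the chains needs no scaling. For each count on Psme2 there were 1.88 and 1.9 on Psme1 at E12.5, then 1.97 and 2.03 (E14), 2.35 and 2.35 (E15.5), 2.42 and 2.48 at E17, and 3.08 and 3.53 at P0. No 2 stages overlapped, and the ratio was higher at each stage than at the one before. This pair was set side by side after the values were seen, so no test was made. A further row, Psme2b, is named as a copy of Psme2, and its counts were a near-fixed share of those of Psme2, 0.379 to 0.408 per count in the 10 libraries. Reads may be divided between the 2 rows, and neither level is certain. Summed as 1 gene, they gave -0.40 from E12.5 to P0 (adjusted p = 0.00409), and Psme1 per count of the sum went from 1.34 and 1.35 to 2.23 and 2.51.

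**Figure D4:**
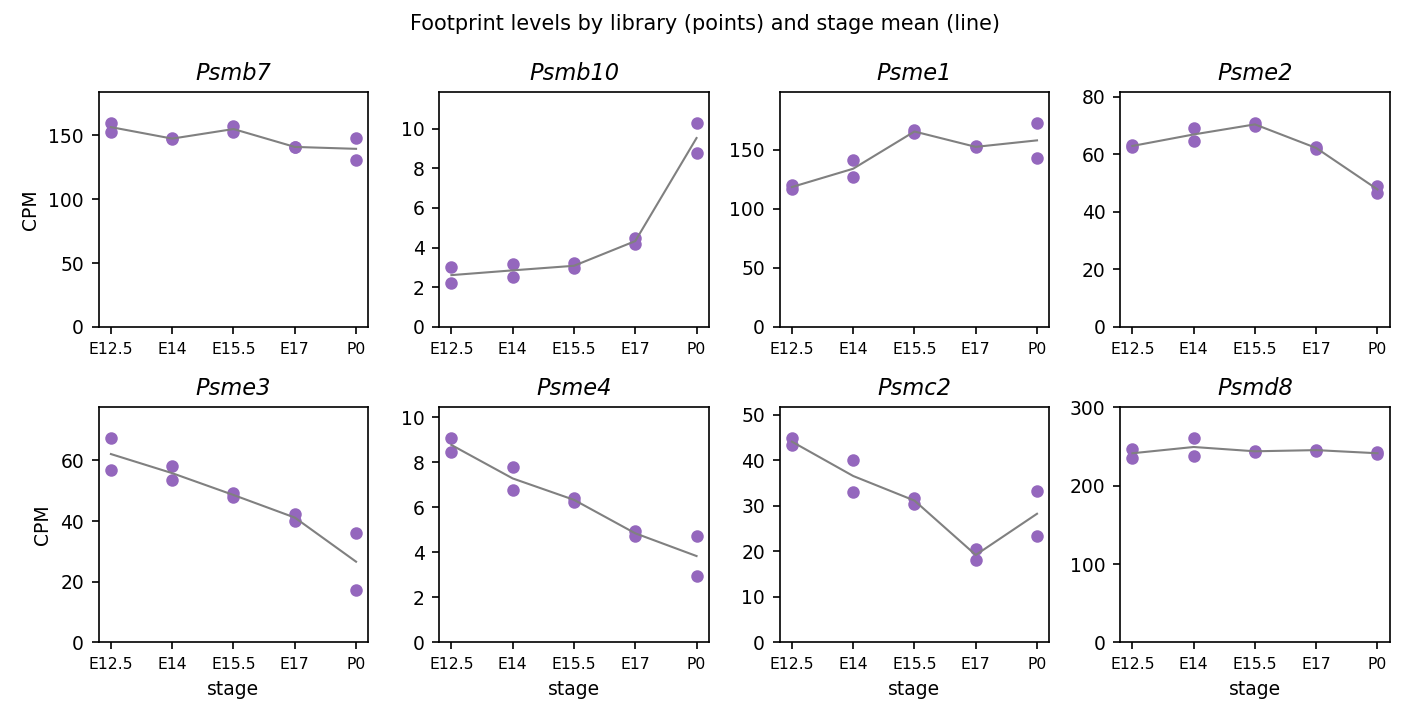
CPM of 8 genes in each library (points) with the stage mean (line), axes from 0. Psmb10 rises at P0, Psme3 and Psme4 fall over all stages, Psmc2 is lowest at E17, Psme1 rises to E15.5, Psme2 falls at P0, and Psmb7 and Psmd8 stay level.

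**Figure D5:**
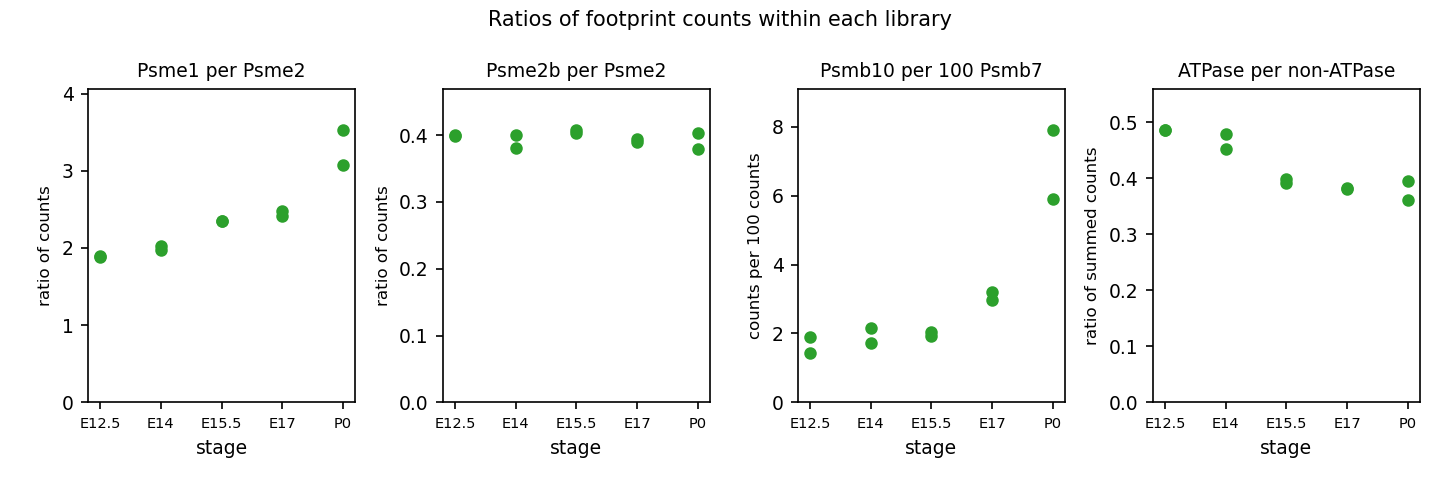
Ratios of counts within each library by stage, axes from 0. Psme1 per Psme2 climbs from 1.88 to 3.53, Psme2b per Psme2 stays near 0.4, Psmb10 per 100 counts of Psmb7 climbs to 7.91, and ATPase per non-ATPase counts step down between E14 and E15.5.

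Compared by class, the core genes had the higher median change at P0, by an amount that rested on single libraries. The median change from E12.5 to P0 was -0.04 over 16 core genes and -0.20 over 20 regulatory genes, a difference of 0.16, which was 0.02 without replicate 1 of P0, 0.06 without replicate 1 of E12.5 and 0.22 without replicate 2 of E12.5. Between replicates of 1 stage, the median log2 difference of core genes minus that of regulatory genes had a pooled SD of 0.0436 and was largest at P0 (-0.11). Summed counts gave more core per regulatory footprint at later stages, 1.24 and 1.3 at E12.5, then 1.29 and 1.31 (E14), 1.41 and 1.42 (E15.5), 1.49 and 1.47 at E17, and 1.42 and 1.34 at P0. Psma3 took 19.7% and 19.5% of core counts at E12.5 and 27.2% and 26.5% at E17, and without it the ratio stayed between 0.996 and 1.08.

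Psmc3ip, which takes part in pairing of homologous chromosomes, was the only symbol of the 42 called from E14 to E15.5. It was at 22.9 and 23.1 CPM at E12.5, then 24 and 26.1 (E14), 14.7 and 19 (E15.5), 15 and 16.1 at E17, and 10.9 and 12.1 at P0. The libraries up to E14 did not overlap with the later ones (-0.98 from E12.5 to P0, SE 0.14, adjusted p = 0.000455). Such an order was also found downwards in Psmc3, Psmc4 and Psmc5 and upwards in Psma3 and Psme1, among others. The step of Psmc3ip from E14 to E15.5 was called (-0.59, SE 0.13, adjusted p = 0.01), except without replicate 2 of E14 (-0.53) or replicate 1 of E15.5 (-0.40) and on total counts (-0.30).

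The other genes of the pathway were taken from lists and read from E12.5 to P0, where 30.1% of all genes were called higher and 32.0% lower. Of the 2 regulatory subunits without a Psm symbol, Sem1, a small lid subunit that also works with other complexes, was called lower (-1.21, SE 0.095, adjusted p = 1.43e-05), from 384 and 378 CPM to 154 and 175, with no overlap. Adrm1, a ubiquitin receptor, was not called (0.24, adjusted p = 0.167). Of 9 genes for assembly, inhibition and import of proteasomes, 0 were called higher and 2 lower, with the core assembly chaperone Psmg2 the lowest (-0.62, adjusted p = 0.00155, and -0.09, not called, on total counts) and the maturation factor Pomp at 0.03 (adjusted p = 0.832). Of 4 enzymes that bind proteasomes, the ubiquitin ligase Ube3c was higher (0.77, adjusted p = 0.000224) and the deubiquitinase Uchl5 lower (-0.67, adjusted p = 0.0193), the latter not without replicate 1 of E12.5 (-0.56), with only the 2 stages fitted (-0.68) or on total counts (-0.14), and at -0.36 and -1.09 at the ends when 1 library was left out.

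Of 7 regulators of proteasome genes, 0 were called higher and 3 lower, where 30.1% and 32.0% of all genes were. Nfe2l2, a transcription factor of the stress response, fell most (-1.32, SE 0.21, adjusted p = 0.000734), from 4.51 and 5.05 CPM at E12.5 to 1.2 and 2.15 at P0. Nfe2l1, the factor that drives proteasome genes when the protease is inhibited, was not called (-0.35, adjusted p = 0.134), while Ddi2, which cleaves it, was lower (-0.55, adjusted p = 0.00286), as was Vcp, which extracts it from the membrane (-0.53, adjusted p = 0.0217).

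Among genes that encode ubiquitin itself, the polyubiquitin gene Ubb was higher (0.76, adjusted p = 0.00165), and Rps27a, which joins ubiquitin to a ribosomal protein, was lower (-1.01, adjusted p = 0.000326). Ubb was at 2440 and 2840 CPM at E12.5 and 5040 and 3890 at P0, and Rps27a at 1200 and 1070 and then 493 and 645, neither with overlap. The activating enzymes split as well, with Uba1 higher (0.43, adjusted p = 0.0107) and Uba6 lower (-1.14, adjusted p = 0.0054). The call of Uba1 was lost without replicate 1 of E12.5 (0.37) or replicate 2 of P0 (0.29), with sample weights (0.38) and with only the 2 stages fitted (0.44), and Uba6 was at -1.81 without the latter and was not called on total counts (-0.61). Of 5 shuttle receptors, 1 was higher (Ubqln2, 0.71, adjusted p = 0.00124) and 0 lower, and of 5 cofactors of Vcp, Ufd1 was higher (0.61, adjusted p = 0.00198) and Faf2 lower (-0.69, adjusted p = 0.00291, not called on total counts at -0.17 or with sample weights).

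The make-up of the tissue moved strongly over the same stages. Markers of neurons summed to 2370 and 2390 CPM at E12.5 and 8760 and 9680 at P0, with 7 of 10 higher. Of 10 progenitor markers, 9 were lower at P0 and 1 higher. Markers of red blood cells went from 11200 and 11600 CPM to 1860 and 1440, with 9 of 9 tested lower. Those of endothelium went from 42.8 and 43 to 15.7 and 13.7, with 9 of 10 lower and 1 higher. Those of meninges went from 110 and 113 to 12.2 and 13 (9 of 10 lower). Those of choroid plexus went from 376 and 295 at E12.5 and 1190 and 1200 at E14 to 15.3 and 15.8 (6 of 8 lower). Of 12 glial markers, 10 were higher and 1 lower, and of 10 markers of the ganglionic eminence 9 were higher. No listed marker gene was at 0 in all libraries. The part of these shifts in the changes of the proteasome genes was not tested.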

How the data were processed

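Neocortex footprint counts from 10 libraries (5 stages, 2 pooled replicates each) were analysed. Per the study's methods, reads were trimmed, duplicates removed by molecular identifier, structural RNAs filtered with Bowtie 2, and the rest aligned with STAR (version 2.7.0 in the submitters' processing notes) to GENCODE coding transcripts with multiply mapped reads kept, and length-corrected counts per gene were derived with tximport. The authors deposited whole-number counts per Ensembl gene, and the sources used here do not say whether these are the length-corrected ones. Symbols were matched for 22274 of 22373 identifiers. The main test was limma-voom (limma 3.58.1, edgeR 4.0.16, R 4.3.3) on all 13484 genes with at least 32 footprints in a stage, 1 coefficient per stage, TMM factors, and Benjamini-Hochberg adjustment over all genes, two-sided. Alternatives were total counts, DESeq2 1.42.0 size factors and Wald test, edgeR quasi-likelihood, other filters, sample weights, a replicate block, 2-stage fits and leaving out each library. Replicates are pools of brains. The p-values rest on the spread between the 2 pools of a stage, taken over all stages fitted and moderated across genes. Deviations of same-numbered replicates had r from 0.208 to 0.429 in 5 of 10 pairs of stages and from -0.641 to -0.0442 in the other 5, the 4 with E12.5 among them, so the numbers were not taken to pair samples. The fits were tested on simulated data.

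Members and lists were chosen with earlier results of these data known. Genes were named by role (catalytic and immune beta subunits, activators, ubiquitin-handling subunits, chaperones, tissue-restricted forms) and, per comparison, as the 3 largest called rises and falls. Pathway genes are the largest called rise and fall of each list, and others named are said beside them as list members. Levels of different subunits were not compared, since coding lengths and protein sequences were not used here. Some listed genes are not reported here. Promoter windows were from RefSeq. Intervals and limits cover counting error only.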

Additional observations from a re-analysis of the deposited data

How the results depend on the processing

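Of the values that answer a comparison, scaling to total counts moved most. On that scale the median change of the proteasome genes was 0.0286, 0.27, -0.0861 and 0.16 over the 4 consecutive steps, 0.24 from E12.5 to E17 and 0.36 from E12.5 to P0, with 12 called higher and 0 lower from E14 to E15.5, 7 and 0 from E17 to P0, 14 and 1 from E12.5 to E17, 21 and 3 from E12.5 to P0, and 26 changed over the stages. Of all 13484 genes, 4406, 1826, 5885 and 6443 were called higher on total counts in the same 4 comparisons. This scaling turned Psmd4 from E12.5 to E17 (0.0209) and, from E12.5 to P0, Psma7 (0.0643), Psmc3 (0.11), Psmc4 (0.11), Psmc5 (0.18), Psme2 (0.14), Psme2b (0.12), Psmd4 (0.39), Psmb6 (0.48), Psmb7 (0.37) and Psmd14 (0.14). Psmb6 was also above 0 in DESeq2 (0.0092) and with sample weights (0.0412). Total counts without histone genes gave 13 lower from E12.5 to E17. With sample weights, calls (higher and lower) were 1 and 2 from E15.5 to E17, 1 and 0 from E17 to P0, 13 lower from E12.5 to E17 and 1 higher from E12.5 to P0. Fits of only the 2 stages compared gave 2 and 2 from E15.5 to E17, 0 and 0 from E17 to P0, and 1 and 4 from E12.5 to P0. From E17 to P0, 0 of all genes were called in such a fit. Without a filter there was 0 lower from E15.5 to E17 and 1 higher from E17 to P0. From E17 to P0, edgeR gave 2 higher and DESeq2 2 lower. The replicate block gave 0 lower from E15.5 to E17 (Psmc2 at -0.70, adjusted p = 0.0584) and 2 higher from E17 to P0, and changed no other count by over 1.5 times. Without both P0 libraries, an alternative chosen after seeing the data like the sum of Psme2 and Psme2b, 2 were lower from E15.5 to E17.

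Leaving out 1 library at a time, the calls higher and lower ranged over 0 to 0 and 0 to 0 from E12.5 to E14, 0 to 0 and 0 to 1 from E14 to E15.5, 0 to 0 and 0 to 2 from E15.5 to E17, 0 to 4 and 0 to 9 from E17 to P0, 1 to 3 and 6 to 14 from E12.5 to E17, and 1 to 3 and 9 to 19 from E12.5 to P0. The medians ranged from -0.0724 to 0.0201, -0.04 to 0.01, -0.17 to -0.12, -0.0438 to 0.15, -0.24 to -0.16 and -0.22 to -0.11 in the same order, and genes changed over the stages from 12 to 27. The median of core minus that of regulatory genes ranged from -0.0499 to 0.0538 for E12.5 to E14, 0.0280 to 0.1835 for E12.5 to E17 and 0.0191 to 0.2232 for E12.5 to P0. Psmb5 ranged from -0.30 to 0.47 and Psmb6 from -0.28 to 0.21 from E12.5 to P0. The cause of these differences was not tested. With 2 libraries a stage, and with replicate 1 of P0 at 7544404 counts, changes at P0 are the least certain.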

Other observations

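The replicates of E12.5 and of P0 differed from each other in opposite ways over the proteasome genes. Over the 37 that averaged 500 counts or more, the log2 difference of replicate 2 from replicate 1 had r = -0.77 between E12.5 and P0, a description across genes, which are not independent replicates. Over all 4559 genes of that depth it was -0.641. At P0, replicate 2 was higher for Psme3 (1.03), Psmd12 (0.81), Psmd14 (0.67), Psmd6 (0.62), Psmc6 (0.57), Psma1 (0.51) and Psmc2 (0.50), and lower for Psmb5 (-0.77) and Psmb6 (-0.49). At E12.5, Psmb5 (0.31) and Psmb6 (0.38) were higher in replicate 2, and Psme3 (-0.24) and Psmd6 (-0.20) lower. Genes were listed here after their values were seen.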
